A study of Mus musculus with 12 samples.

Results

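The adipogenic transcription factors described here are the 10 mouse genes Pparg, Cebpa, Cebpb, Cebpd, Klf15, Srebf1, Ebf1, Ebf2, Stat5a and Gata2, out of 18194 named genes on the Affymetrix mouse genome array. Every probe set annotated to a member alone was taken, which gave 20 of 45101 probe sets, and the probe set with the highest mean over all 12 arrays led for its gene. Expression was measured on 3 arrays in each of 4 groups of differentiated adipocytes. The ST2 SRA group is ST2 cells, a mouse marrow-derived stromal line, that carried SRA through the retrovirus pMSCV-SRA, and the ST2 control group carried the empty pMSCV vector. According to the study's methods the SRA vector held the human RNA. The 3T3-L1 shSRA group is 3T3-L1 cells, a mouse preadipocyte line, that carried the hairpin pSuperior-shSRA-2 against mouse SRA, and the 3T3-L1 shControl group carried pSuperior-shcontrol, which the labels call an empty vector. The knockdown thus rests on a single hairpin. Cells of all 4 groups were differentiated with MDIT, which combines insulin (0.167 µM), dexamethasone (1 µM), methylisobutylxanthine (0.5 mM) and troglitazone (5 µM). The RNA came from day 4 for ST2 and from day 8 for 3T3-L1 adipocytes. Troglitazone is itself a ligand of PPARγ, and dexamethasone activates the glucocorticoid receptor, so every group, controls included, was exposed to agents that act on adipogenic factors. SRA, the steroid receptor RNA activator, is an RNA that acts as a coactivator of nuclear receptors. The labels call the replicates biological but do not say how far back the cultures were separate, so the tests measure the spread between these arrays.

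Adipogenesis runs through a cascade of transcription factors. C/EBPβ and C/EBPδ are induced first by the hormone mixture and act upstream of PPARγ and C/EBPα, which then maintain each other's expression and switch on the genes of the fat cell. SREBP1, KLF15, STAT5A, EBF1 and EBF2 promote or accompany this program, and GATA2 is a preadipocyte factor that restrains it.

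Of the deposited log2 values, made by robust multi-array average (RMA), 19068 probe sets had a variance above 0.05 over all arrays and were tested with limma in a single model of the 4 groups, with p-values adjusted by Benjamini-Hochberg over all of them. Sra1 had log2 values of 9.46, 9.20 and 9.62 in shSRA and of 11.86, 11.67 and 11.84 in shControl adipocytes, so the hairpin's target was lower on every shSRA array. In ST2 SRA minus ST2 control adipocytes that probe set differed by only 0.22 (SE 0.18, limma adjusted p = 0.484), and whether it reads the human construct was not tested. The paper states that pMSCV-SRA raised SRA RNA many-fold in ST2 cells, with the data not shown. Fabp4, which encodes the fatty acid-binding protein aP2, read at least 14.62 and Adipoq, which encodes adiponectin, at least 14.29 on each of the 12 arrays. Both lay near the array maxima of 14.75 to 15.14. Of the 8 adipocyte markers measured, 3 were called lower in ST2 control than in 3T3-L1 shControl adipocytes and 0 higher, with a median log2 difference of -0.36. ST2 control replicate 2 stood apart, with a median deviation of -0.43 from its group's other arrays over 14314 bright probe sets, and its Pparg, Stat5a and Srebf1 values lay 0.71, 0.64 and 0.50 lower than the mean of the other ST2 control arrays. For Pparg, Cebpa, Srebf1 and Stat5a the overexpression changes without it are given beside the result, but not every value is given without it. Osteoblast, macrophage and endothelial marker lists held 0 called genes in either SRA comparison. Of the 4, 6 and 5 measured, only 1, 2 and 0 passed the variance filter and could be called, so these lists say little about such cells.

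With SRA overexpression in ST2 adipocytes, Srebf1 rose and Cebpd fell, and the other 8 factors were not called. Against that 1 of 10 higher and 1 of 10 lower, 1.28% of all named genes were called higher and 3.09% lower. With SRA knockdown in 3T3-L1 adipocytes none of the 10 factors was called by limma, against 0.044% of all named genes called. At an unadjusted p under 0.05 from limma, 4 factors were higher and 1 was lower with overexpression (22.2% of all tested probe sets passed in either direction) and 0 of the 7 tested factors passed with knockdown (2.8%). Cebpd had an unadjusted p of 0.0639 with knockdown in that limma model. It was 0.0290 in limma with the replicate number blocked in both lines, and 0.0487 with no variance filter. The median log2 fold change over the 10 factors was 0.20 with overexpression and 0.07 with knockdown, beside medians of 0.06 and -0.01 over all named genes. ST2 control replicate 2 read lower for the factors, by a median of -0.27 from the mean of the other ST2 control arrays. The overexpression median without that array was not computed, so 0.20 is not shown to be a shift of the factors as a group. Of the 10 leading probe sets, 7 passed the variance filter. Those of Cebpb, Ebf1 and Gata2 did not, and their values are given with no test.

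**Figure D1:**
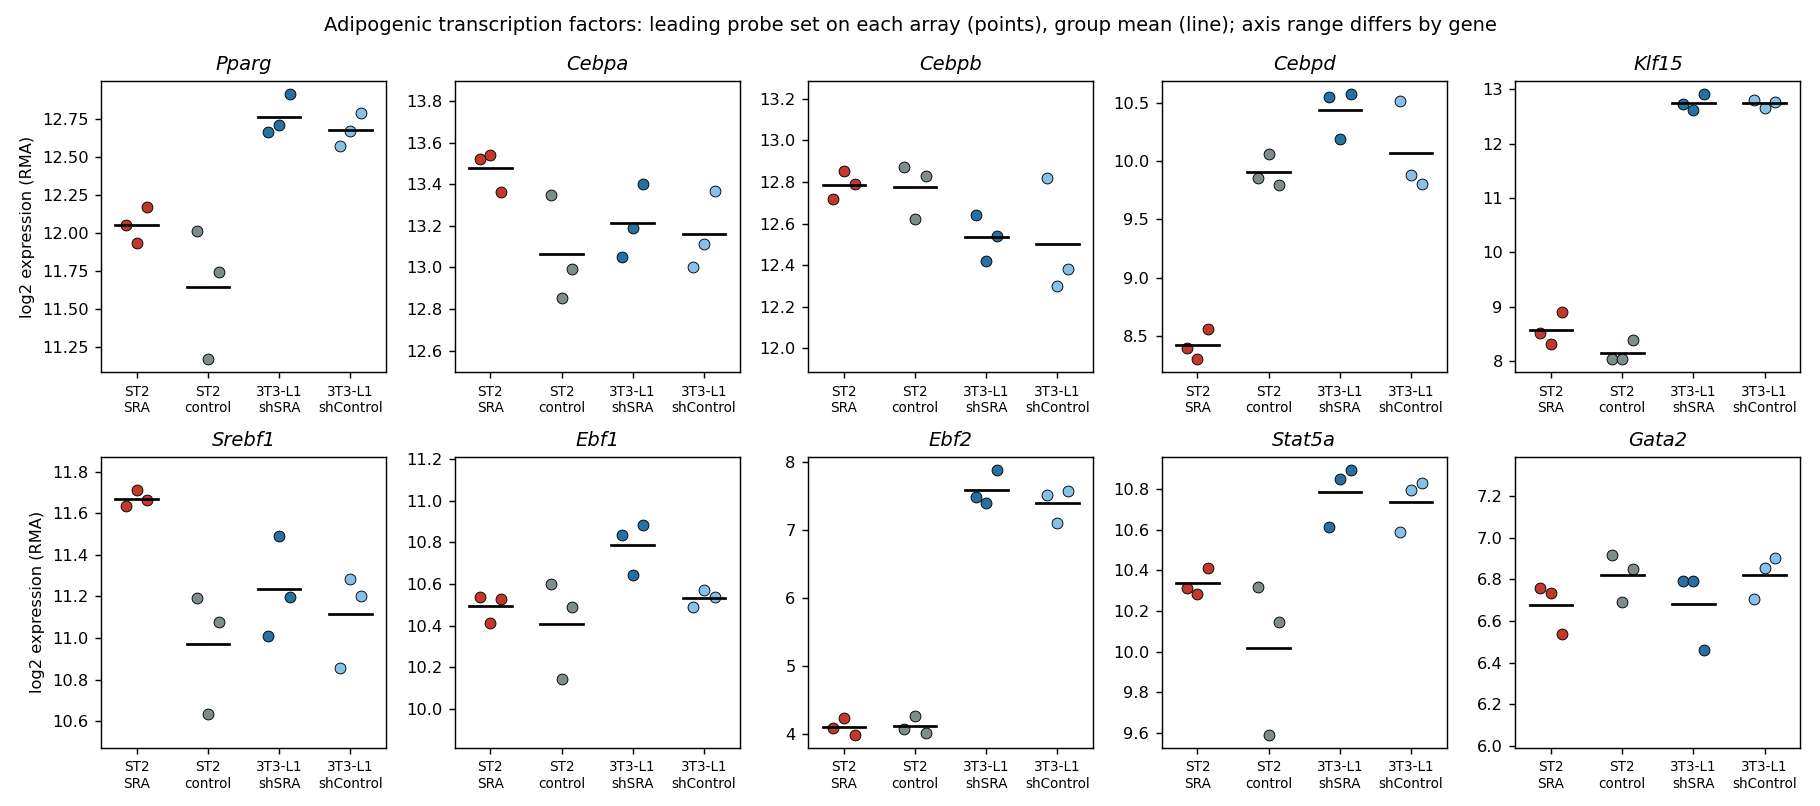
Log2 expression (RMA) of the leading probe set of each of the 10 factors on the 12 arrays, with ST2 SRA, ST2 control, 3T3-L1 shSRA and 3T3-L1 shControl from left to right, points for arrays and lines for group means. Cebpd reads 8.30 to 8.56 on the ST2 SRA arrays, under all other arrays, and Klf15 and Ebf2 separate the cell lines rather than the SRA groups.

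Cebpb and Cebpd encode the early C/EBP factors of the cascade. Cebpd had log2 values of 8.40, 8.30 and 8.56 in ST2 SRA and of 9.85, 10.06 and 9.79 in ST2 control adipocytes. All SRA arrays lay below all control arrays, with a wide gap between the groups. Cebpd fell by 1.48 on the log2 scale (SE 0.19, 95% interval -1.88 to -1.09, limma adjusted p = 3.33e-05), or 2.79-fold lower, and 83 of the 18194 named genes, Cebpd included, had a fold change as low or lower. The call held without any single array, with log2 fold changes between -1.55 and -1.40. A second, dimmer Cebpd probe set read 5.98, 6.05 and 5.90 in ST2 SRA and 6.06, 6.42 and 5.98 in ST2 control adipocytes, near or below the array medians of 6.45 to 6.53. It failed the variance filter and its groups overlapped, with a log2 fold change of -0.17, so the fall rests on the brighter probe set. The mean of both probe sets gave -0.83 (limma adjusted p = 0.00063).

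Markers of other cell states also differed between the ST2 groups. Over all named genes 3.09% were called lower with overexpression and 1.28% higher. Of 7 preadipocyte and fibroblast markers measured, 3 were lower with SRA overexpression, 0 were higher and 4 were not called, with a median log2 fold change of -0.046. For the lower ones the log2 fold changes were -1.95 for Col3a1 and -1.47 for Col1a1, which encode collagens, and -1.25 for the growth factor receptor gene Pdgfra. The summed level of all 7, as log2, was 11.89 to 12.38 in ST2 SRA and 13.58 to 14.12 in ST2 control adipocytes. All 4 proliferation markers measured (Mki67, Top2a, Cdk1 and Birc5) were lower, with summed levels of 9.31 to 10.04 in ST2 SRA and 10.83 to 11.55 in ST2 control adipocytes. The 8 adipocyte markers measured summed to 16.96 to 17.04 in ST2 SRA and 16.54 to 16.94 in ST2 control adipocytes, and 1 of them, Slc2a4, was called, higher. The part of these markers in the changes of the factors was not tested. Fewer cells of a type and less RNA per cell cannot be told apart in these bulk samples.

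In 3T3-L1 adipocytes Cebpd read 10.55, 10.19 and 10.57 in shSRA and 10.52, 9.88 and 9.81 in shControl adipocytes. The groups overlapped, because shControl replicate 1 read almost as high as the highest shSRA arrays. A log2 fold change of 0.37 (SE 0.19, 95% interval -0.02 to 0.76) was not called by limma (adjusted p = 1.00 after rounding). Replicates of the same number deviated together in this line, and the differences within the pairs 1, 2 and 3 were 0.03, 0.31 and 0.77, all upward. With the replicate number blocked in both lines, limma gave an adjusted p of 0.742.

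Cebpb, the partner of C/EBPδ in early adipogenesis, was nearly level. Its log2 values were 12.72, 12.85 and 12.79 in ST2 SRA against 12.87, 12.62 and 12.83 in ST2 control adipocytes. In 3T3-L1 adipocytes they were 12.64, 12.42 and 12.54 in shSRA against 12.82, 12.30 and 12.38 in shControl. Both pairs of groups overlapped, and the log2 fold changes were 0.01 (95% interval -0.28 to 0.30) with overexpression and 0.03 (-0.26 to 0.32) with knockdown. A second Cebpb probe set gave 0.00 and -0.05.

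Pparg encodes PPARγ, the nuclear receptor that is required for fat cell formation and that troglitazone binds. Its log2 values were 12.05, 11.93 and 12.17 in ST2 SRA and 12.01, 11.17 and 11.74 in ST2 control adipocytes. The groups overlapped, since control replicate 1 read higher than SRA replicate 2. Its change of 0.41 (SE 0.19, 95% interval 0.02 to 0.80, limma adjusted p = 0.201) was not called, and it was 0.17 (adjusted p = 0.471) without ST2 control replicate 2. In 3T3-L1 adipocytes Pparg read 12.66, 12.71 and 12.91 in shSRA and 12.57, 12.67 and 12.79 in shControl. These arrays overlapped as well, with a log2 fold change of 0.08 (95% interval -0.31 to 0.48) and differences of 0.09, 0.04 and 0.12 within the pairs.

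Cebpa encodes C/EBPα, which holds up Pparg expression and the insulin sensitivity of the fat cell. Its log2 values were 13.52, 13.54 and 13.37 in ST2 SRA and 13.35, 12.85 and 12.99 in ST2 control adipocytes. The groups did not overlap, though SRA replicate 3 lay only just above control replicate 1. Such separation in either direction was seen for 19.3% of all named genes, and for 3 of the 10 factors (Cebpa and Srebf1 upward, Cebpd downward). Cebpa had a log2 fold change of 0.41 (SE 0.17, 95% interval 0.06 to 0.77, limma adjusted p = 0.156), which was not called. Without ST2 control replicate 2 it was 0.30. In 3T3-L1 adipocytes the values were 13.05, 13.19 and 13.40 in shSRA and 13.00, 13.11 and 13.37 in shControl. The log2 fold change there was 0.05 (95% interval -0.30 to 0.41), and the arrays of both groups spread over the same range. Within the pairs the differences were 0.05, 0.07 and 0.04, and limma blocked on the replicate number in both lines did not call Cebpa.

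**Figure D2:**
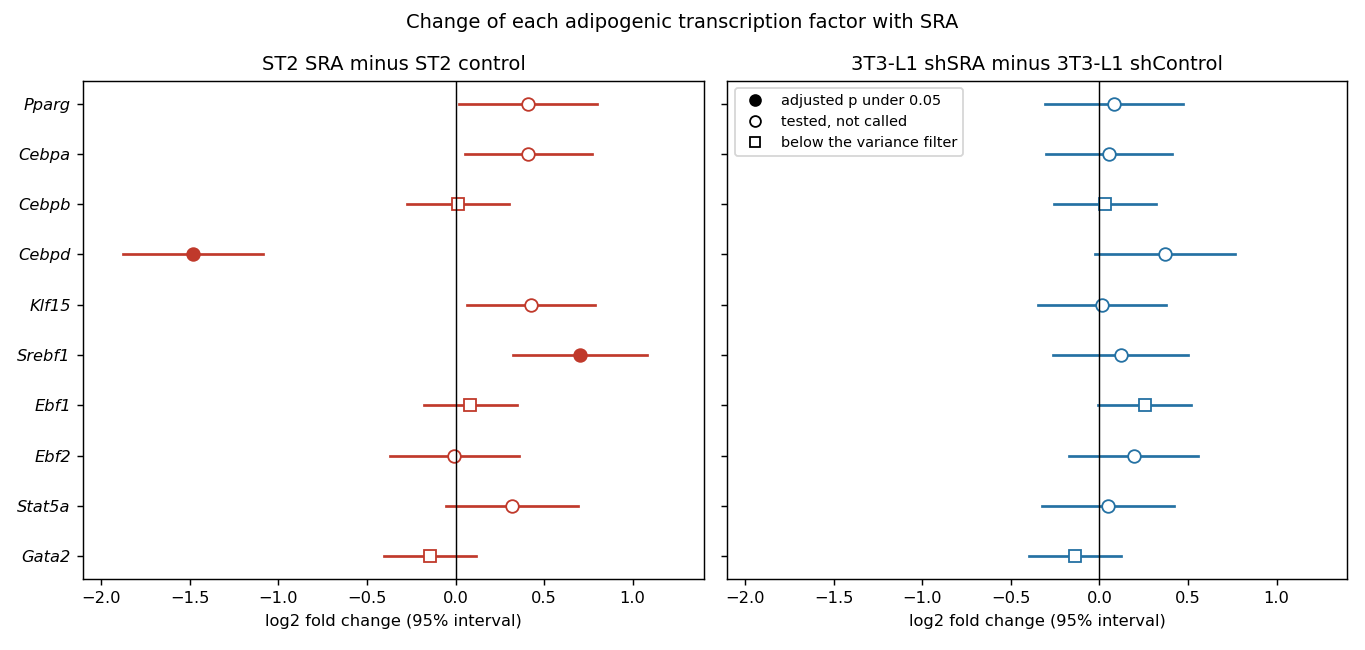
Log2 fold change (horizontal axis, with its 95% interval) of each factor for ST2 SRA minus ST2 control on the left and 3T3-L1 shSRA minus 3T3-L1 shControl on the right, with filled points for calls at an adjusted p under 0.05 and squares for probe sets below the variance filter. Cebpd at -1.48 and Srebf1 at 0.70 are the 2 filled points, both on the left, and no point on the right is filled.

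Srebf1 encodes SREBP1, the factor that drives fatty acid and triglyceride synthesis genes in response to insulin. Its log2 values were 11.64, 11.71 and 11.67 in ST2 SRA and 11.19, 10.63 and 11.08 in ST2 control adipocytes. The SRA arrays lay close together and all above the control arrays, of which replicate 2 was lowest. Srebf1 rose by 0.70 (SE 0.18, 95% interval 0.32 to 1.08, limma adjusted p = 0.0190), or 1.63-fold, and 97 of 18194 named genes, Srebf1 included, rose as much or more. Without ST2 control replicate 2 the log2 fold change was 0.53 (adjusted p = 0.0397). Without ST2 SRA replicate 1, 2 or 3 it was 0.72, 0.68 and 0.70, but the call was lost (adjusted p = 0.0569, 0.0879 and 0.0569), and under limma's nested F classification of both SRA comparisons Srebf1 was not called. In 3T3-L1 adipocytes Srebf1 read 11.01, 11.49 and 11.20 in shSRA and 10.86, 11.28 and 11.20 in shControl, overlapping groups with a log2 fold change of 0.12 (95% interval -0.26 to 0.50). Its ST2 SRA arrays also lay above every 3T3-L1 array, and no other factor did so.

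Promoters are shown for Srebf1 and Cebpa, the factors whose ST2 SRA arrays all lay above the ST2 control arrays, and for Klf15, the factor that differed most between the lines. Each holds 250 bases before and 50 after a transcription start in RefSeq (GRCm38.p6), written 5′ to 3′ in the direction of the gene, with capitals for matches to a fixed set of motifs. Srebf1 has 3 starts in this table, and the files do not tell which of them its probe set reads. They lie at chr11:60222532-60222831, chr11:60220578-60220877 and chr11:60210422-60210721, on the minus strand, Cebpa at chr7:35119043-35119342 and Klf15 at chr6:90462326-90462625, on the plus strand.
Srebf1 start 1 promoter: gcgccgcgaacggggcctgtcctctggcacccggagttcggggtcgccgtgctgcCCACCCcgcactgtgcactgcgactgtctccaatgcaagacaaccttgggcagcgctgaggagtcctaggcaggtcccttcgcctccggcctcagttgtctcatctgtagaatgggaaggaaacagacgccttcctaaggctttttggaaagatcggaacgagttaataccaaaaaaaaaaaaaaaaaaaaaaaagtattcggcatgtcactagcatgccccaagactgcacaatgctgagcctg
Srebf1 start 2 promoter: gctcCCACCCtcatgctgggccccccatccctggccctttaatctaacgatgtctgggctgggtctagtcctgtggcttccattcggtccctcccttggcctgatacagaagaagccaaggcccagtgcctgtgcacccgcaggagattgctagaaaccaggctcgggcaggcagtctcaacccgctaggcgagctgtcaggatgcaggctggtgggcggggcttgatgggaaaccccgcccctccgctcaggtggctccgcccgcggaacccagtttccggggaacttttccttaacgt
Srebf1 start 3 promoter: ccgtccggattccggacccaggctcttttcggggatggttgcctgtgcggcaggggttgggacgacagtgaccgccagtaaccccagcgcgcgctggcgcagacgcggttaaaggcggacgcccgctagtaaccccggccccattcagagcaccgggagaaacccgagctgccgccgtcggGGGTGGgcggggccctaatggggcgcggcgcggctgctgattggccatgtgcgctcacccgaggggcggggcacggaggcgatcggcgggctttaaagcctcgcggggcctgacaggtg
Cebpa promoter: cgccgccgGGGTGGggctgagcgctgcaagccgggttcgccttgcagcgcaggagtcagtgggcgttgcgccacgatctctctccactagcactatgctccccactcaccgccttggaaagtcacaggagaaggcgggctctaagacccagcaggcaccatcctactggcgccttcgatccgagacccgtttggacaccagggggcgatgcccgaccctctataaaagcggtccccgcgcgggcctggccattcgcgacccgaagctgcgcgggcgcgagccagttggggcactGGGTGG
Klf15 promoter: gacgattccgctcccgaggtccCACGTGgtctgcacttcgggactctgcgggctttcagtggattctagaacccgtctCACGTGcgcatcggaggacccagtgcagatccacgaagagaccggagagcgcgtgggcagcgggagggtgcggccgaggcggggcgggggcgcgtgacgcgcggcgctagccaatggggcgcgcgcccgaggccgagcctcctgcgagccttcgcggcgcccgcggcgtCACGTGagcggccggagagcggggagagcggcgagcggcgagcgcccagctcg
The motifs searched on both strands were TTNNGCAAT for C/EBP factors, TTCNNNGAA for STAT5 and TCACNNCAC for SREBP1. For zinc finger factors of the KLF family the search used the letters CCACCC. Members of the basic helix-loop-helix family were searched by the E-box, CACGTG, and GATA factors by their core with a base on each side, as AGATAA. The DR1 element of PPARγ with RXR, a direct repeat with 1 base between its copies, and the EBF palindrome were searched too. No motif lay over another in the sequences shown. The capitals in Klf15 are 3 E-boxes, starting at positions -228, -172 and -3 from the start site, and 7.15% of the 32851 promoters in the table hold an E-box. Those in Cebpa and at each of the 3 Srebf1 starts are the KLF motif on either strand, read as its reverse complement where it lies on the minus strand, and 31.5% of promoters hold it. Of the 10 factors, 8 had promoters in the table, 15 promoters in all. Cebpd, the factor with the largest SRA change, and Ebf2 had none there and were not searched. The KLF motif also matched a Pparg and the Cebpb promoter. The first Stat5a promoter held an SREBP1 motif, as do 3.77% of promoters. No match was found for C/EBP (2.18% of all promoters), DR1 (0.0396%), EBF (0.904%), STAT5 (8.30%) or GATA (11.2%), which says only that these letters are not in these windows.

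Klf15 encodes a zinc finger factor that is induced during adipogenesis, works with C/EBP factors on Pparg and raises Slc2a4. Its log2 values were 8.52, 8.32 and 8.90 in ST2 SRA and 8.04, 8.05 and 8.38 in ST2 control adipocytes. SRA replicate 2 read below control replicate 3, so the groups overlapped. A log2 fold change of 0.42 (SE 0.17, 95% interval 0.06 to 0.78, limma adjusted p = 0.149) was not called, and without ST2 SRA replicate 3 it was 0.26 (adjusted p = 0.521). In 3T3-L1 adipocytes Klf15 stood far higher and did not separate the groups, with 12.73, 12.62 and 12.91 in shSRA and 12.81, 12.65 and 12.76 in shControl. The log2 fold change of 0.01 had a 95% interval of -0.35 to 0.37.

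Stat5a encodes a factor activated by growth hormone and prolactin signaling that promotes adipogenesis. Its log2 values were 10.32, 10.28 and 10.41 in ST2 SRA and 10.32, 9.59 and 10.15 in ST2 control adipocytes. Only control replicate 2 stood clearly below the other ST2 arrays. Stat5a had a log2 fold change of 0.32 (SE 0.18, 95% interval -0.06 to 0.69, limma adjusted p = 0.305), and 0.11 without that array. In 3T3-L1 adipocytes it read 10.61, 10.85 and 10.89 in shSRA and 10.59, 10.79 and 10.83 in shControl, a log2 fold change of 0.05 (95% interval -0.33 to 0.42). Within the pairs the differences were 0.02, 0.05 and 0.07, and limma blocked on the replicate number in both lines did not call Stat5a. A second Stat5a probe set gave 0.29 with overexpression and 0.03 with knockdown.

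Ebf1 and Ebf2 encode early B cell factors, of which EBF1 and EBF2 act in preadipocytes and EBF2 also in the brown fat program. Ebf1 had log2 values of 10.54, 10.41 and 10.53 in ST2 SRA and of 10.60, 10.14 and 10.49 in ST2 control adipocytes, which overlapped. In 3T3-L1 adipocytes it had 10.84, 10.64 and 10.88 in shSRA and 10.49, 10.57 and 10.54 in shControl. Ebf1 was the only factor whose shSRA arrays did not overlap the shControl arrays, a separation seen for 9.45% of all named genes. The log2 fold change was 0.26 (SE 0.12, 95% interval -0.01 to 0.52), below the variance filter and so without a test. Of its 4 other probe sets, 3 had knockdown changes of 0.20, 0.28 and 0.23 and the dimmest had -0.05. The single Ebf1 probe set that passed the filter was not called in either SRA comparison, with 0.36 (limma adjusted p = 0.271) for overexpression and 0.28 for knockdown.

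Ebf2 was dim in ST2 adipocytes, with log2 values of 4.09, 4.24 and 3.99 in ST2 SRA and 4.07, 4.26 and 4.01 in ST2 control adipocytes. These lay under the first quartile of each array (4.92 to 5.04), and RMA values carry no detection call, so whether Ebf2 was expressed there was not determined. In 3T3-L1 adipocytes it read 7.49, 7.40 and 7.89 in shSRA and 7.52, 7.11 and 7.57 in shControl. Both pairs of groups overlapped, with log2 fold changes of -0.01 (95% interval -0.37 to 0.36) with overexpression and 0.19 (-0.17 to 0.56) with knockdown. Its other probe sets gave -0.33 and 0.19 with overexpression, in opposite directions, and 0.14 and 0.23 with knockdown.

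Gata2, the inhibitor among the factors, read 6.76, 6.74 and 6.54 in ST2 SRA and 6.92, 6.69 and 6.85 in ST2 control adipocytes. In 3T3-L1 adipocytes it read 6.79, 6.79 and 6.46 in shSRA and 6.71, 6.85 and 6.90 in shControl. All 4 groups overlapped each other, and no other factor showed this. The log2 fold change was -0.14 in both comparisons, with 95% intervals of -0.40 to 0.12, and a second probe set gave -0.21 and -0.09.

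**Figure D3:**
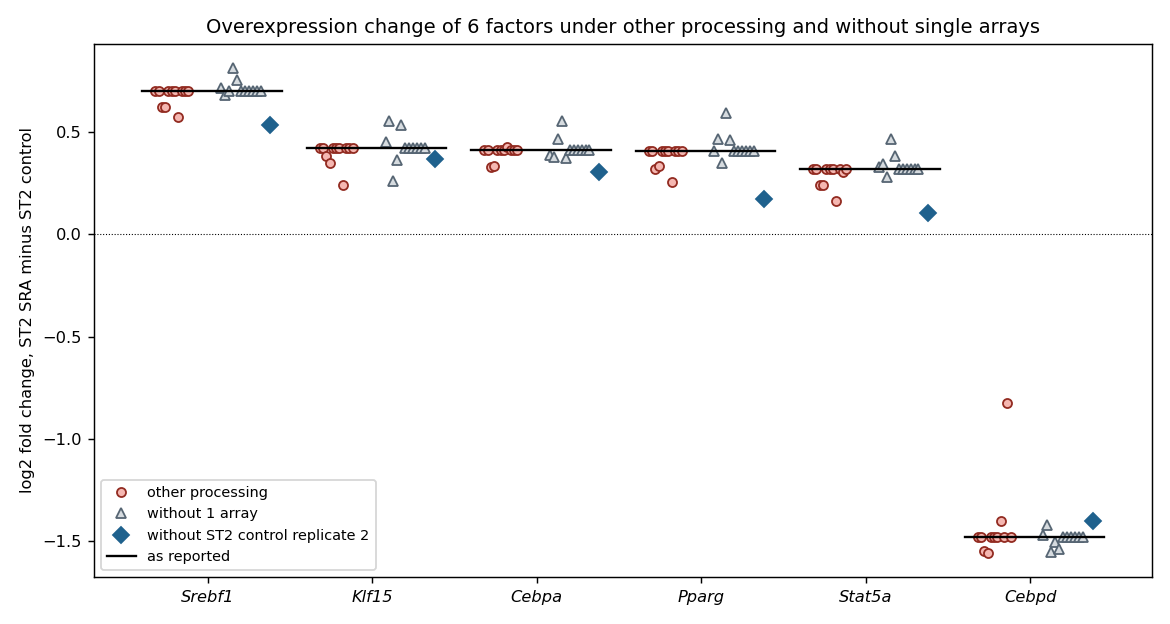
Log2 fold change of 6 factors for ST2 SRA minus ST2 control (vertical axis), with a line for the value reported, circles for other ways of processing, triangles for fits without 1 array and a diamond for the fit without ST2 control replicate 2. Pparg reads 0.17 and Stat5a 0.11 at the diamond, while Cebpd stays between -1.55 and -1.40 without any single array and reads -0.83 as the mean of both probe sets.

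Whether a factor changed differently with overexpression in ST2 than with knockdown in 3T3-L1 adipocytes was tested as the difference of the changes. Cebpd was the only factor called, with a difference of -1.85 (SE 0.27, 95% interval -2.41 to -1.30, limma adjusted p = 0.000445), against 1.32% of all named genes called in either direction. Srebf1 had a difference of 0.58 (95% interval 0.05 to 1.12, adjusted p = 0.380), so its rise in ST2 was not shown to differ from its value in 3T3-L1 adipocytes. Without ST2 control replicate 2 that difference was 0.41. With the knockdown turned round, so that both changes run from less to more SRA, the overexpression change minus the turned knockdown change was -1.11 for Cebpd (limma adjusted p = 0.0213) and 0.82 for Srebf1 (adjusted p = 0.0884). Line, day and method of changing SRA differ between the comparisons and cannot be told apart.

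Between the control groups of the lines more factors were called than in either SRA comparison. In ST2 control against 3T3-L1 shControl adipocytes 4 of the 10 factors were lower and 0 higher, where 17.6% of all named genes were lower and 12.5% higher. The same 4 factors, Pparg, Klf15, Ebf2 and Stat5a, were those whose arrays did not overlap, as for 37.4% of all named genes. Klf15 had a log2 difference of -4.58 (SE 0.17, limma adjusted p = 2.04e-14), or 23.9-fold lower, and 36 of the named genes, Klf15 included, were as low or lower in this comparison. Ebf2 had a log2 difference of -3.29 (SE 0.18), and its other probe sets gave -1.48 and -1.83, all called. Pparg had -1.03 (SE 0.19, limma adjusted p = 0.000109) and Stat5a -0.72 (SE 0.18, adjusted p = 0.00204). Without ST2 control replicate 2 these differences were -0.80 and -0.51. Cebpa, Cebpd and Srebf1 had differences of -0.10, -0.17 and -0.15, with adjusted p from limma of 0.615, 0.427 and 0.474. Cebpb had 0.27 (95% interval -0.02 to 0.56), the only leading probe set that read higher in ST2. The comparison shares its ST2 control arrays with the overexpression comparison, and line, day and vector cannot be told apart in it.

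**Figure D4:**
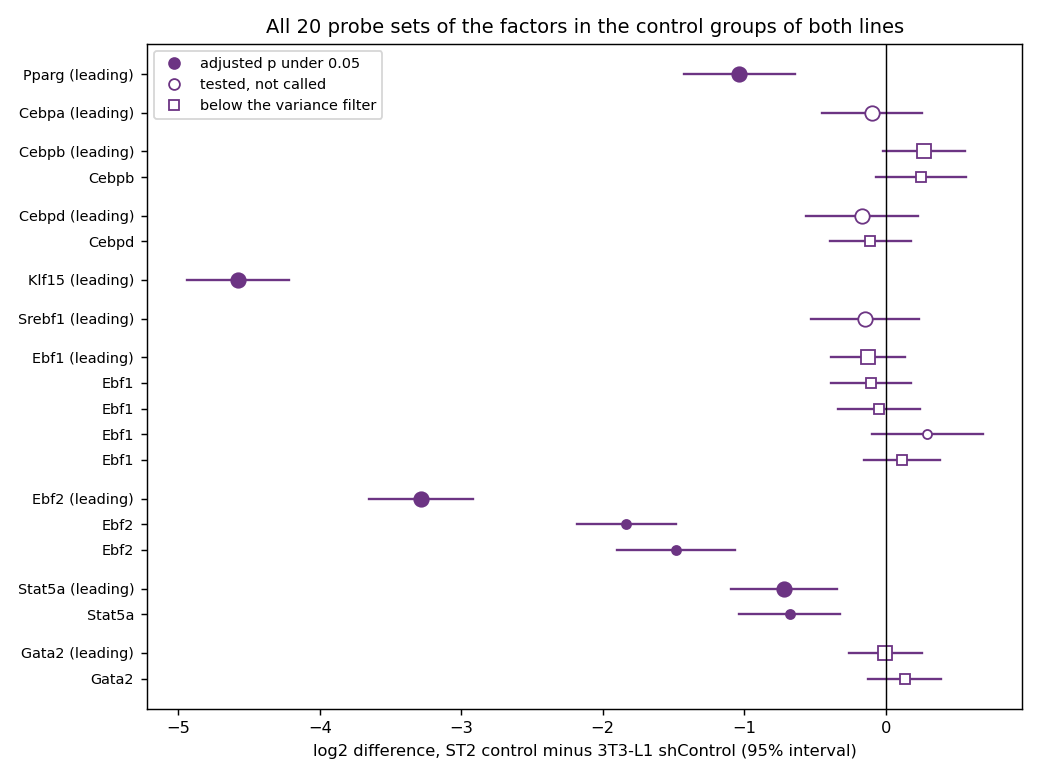
Log2 difference of ST2 control minus 3T3-L1 shControl with its 95% interval (horizontal axis) for all 20 probe sets of the 10 factors, larger points for the leading ones, filled points for calls at an adjusted p under 0.05 and squares for probe sets below the variance filter. Klf15 at -4.58 and the 3 Ebf2 probe sets at -3.29, -1.83 and -1.48 lie far to the left, and those of Cebpb, Cebpd, Ebf1 and Gata2 lie near 0.

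By group means, Pparg ran from shSRA (12.76) and shControl (12.68) down to ST2 SRA (12.05) and ST2 control (11.64), with the 3T3-L1 groups overlapping each other and the ST2 groups overlapping each other. Stat5a had the same order, with 10.79, 10.74, 10.34 and 10.02. Klf15 had it too, at 12.75, 12.74, 8.58 and 8.16. Cebpd ran from shSRA (10.44) through shControl (10.07) and ST2 control (9.90) to ST2 SRA (8.42), and only its step to ST2 SRA separated neighbours in that order. Srebf1 was highest in ST2 SRA (11.67), apart from the other groups, which overlapped at 11.23 in shSRA, 11.11 in shControl and 10.97 in ST2 control. Cebpa had means of 13.48 in ST2 SRA, 13.21 in shSRA, 13.16 in shControl and 13.06 in ST2 control, and only its ST2 SRA and ST2 control arrays did not overlap.

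The genes around the factors were read through lists of partners, other regulators and targets. With overexpression 1.28% of all named genes were called higher and 3.09% lower. Of 16 partners and paralogs measured, such as the RXR partners of PPARγ, 0 were called in either SRA comparison, and Rxrb had the lowest p with overexpression (0.50, limma adjusted p = 0.0562). Without ST2 control replicate 1 the count was 1. Of 33 other pro-adipogenic regulators, Esrra, which encodes an orphan nuclear receptor, rose by 0.55 (adjusted p = 0.0480) and Snai2, a zinc finger factor of mesenchymal cells, fell by 0.98 (adjusted p = 0.00222). Of 28 anti-adipogenic regulators, 1 was called, Foxc2, with -0.52 (adjusted p = 0.0450). These counts turned on single arrays. The pro-adipogenic regulators higher were 3 without ST2 control replicate 1, 1 without shControl replicate 1 and 0 without each of the other 10 arrays. Anti-adipogenic regulators were 3 higher and 0 lower without ST2 control replicate 1, 0 higher and 4 lower without ST2 control replicate 2, and 0 in either direction without each of the other 10 arrays. The calls of Esrra and Foxc2 were lost in 13 of 23 alternatives.

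Of 29 PPARγ targets measured, 6 were higher and 0 lower with overexpression, with a median log2 fold change of 0.37 beside 0.06 over all named genes. Over all named genes 1.28% were called higher and 3.09% lower, and whether a list departs from these shares was not tested. The list median was not computed without ST2 control replicate 2. The count higher was 4 without ST2 SRA replicate 1 or 2 and 11 without ST2 control replicate 1. The higher ones included Cyp4b1, a fatty acid hydroxylase of the cytochrome P450 family (1.78), the fatty acid transporter Cd36 (0.86) and Aqp7, the glycerol channel (0.85). Of 12 C/EBPα targets, 3 were higher and 0 lower: Slc2a4, the insulin-responsive glucose transporter GLUT4 (1.08), the glycerol-3-phosphate dehydrogenase gene Gpd1 (0.80), which is also on the PPARγ list, and the insulin receptor Insr (0.67). That count was 1 without ST2 SRA replicate 2, 2 without ST2 SRA replicate 3 and 4 without ST2 control replicate 1. Cebpa is itself on the PPARγ list and Pparg on the C/EBPα list. Of 18 SREBP1 targets, Lpin1, which makes diacylglycerol, was higher (0.57) and the fatty acid elongase Elovl6 lower (-1.02), beside the rise of Srebf1 itself, and the list median was 0.08. The call of Lpin1 was lost without ST2 SRA replicate 1, 2 or 3 or ST2 control replicate 2 or 3, and 2 targets were lower without ST2 control replicate 2. Of 10 STAT5 targets, the cytokine signaling inhibitors Socs3 (-1.15) and Socs2 (-1.13) were lower and 0 were higher. None of these lists of partners, regulators and targets had a called gene with knockdown. In the limma fit with the replicate number blocked in both lines, 2 PPARγ targets were called in opposite directions with knockdown. They were Aqp7 (0.83, adjusted p = 0.00403) and Cidea (-0.80, adjusted p = 0.0197). Over all named genes 28 (0.154%) were higher and 23 (0.126%) lower with that block, beside 1 higher and 7 lower without it.

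The genes whose pattern was most like that of a factor were found by Pearson correlation over the 12 arrays, after the mean of each cell line was taken out, among 18193 other genes. For Cebpd these were Medag (r = 0.95), Pla1a (0.94) and Socs2 (0.93), whose overexpression changes were -2.35, -1.52 and -1.13. For Srebf1 they were Pccb (0.99), Mpdu1 (0.97) and Tmem205 (0.97). Pparg and Stat5a both had Akap7 first, at 0.98 and 0.99, and had r = 0.97 with each other. Without ST2 control replicate 2 the Pparg and Stat5a values had r = 0.86 over 11 arrays. Cebpa was nearest to Paqr4 (0.95), Klf15 to Rgs2 (0.94) and Ebf2 to Mapkbp1 (0.90). Cebpd and Srebf1, the called factors, had r = -0.86 with each other, and -0.82 without that array. These correlations describe arrays that share their normalization, their groups and the low reading of ST2 control replicate 2, and genes are not independent replicates.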

How the data were processed

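RNA of the 4 groups was hybridised to Affymetrix mouse genome arrays, 3 per group. The authors made the deposited log2 values by robust multi-array average (RMA), which corrects background, brings all arrays to one distribution and summarizes probes into probe sets. The submitters' processing notes name RMA, affy and limma, with no version stated. Because RMA equalizes the arrays, overall differences in RNA content are not seen, and the number of arrays limits the precision. Groups came from the sample labels.

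From these values, the 19068 of 45101 probe sets whose variance across the 12 arrays exceeded 0.05 were fitted in R 4.3.3 with limma 3.58.1, as 4 group means with all arrays weighted equally. The contrasts were overexpression, knockdown, the difference of both and ST2 control minus shControl, each called at a Benjamini-Hochberg adjusted p under 0.05. Probe sets were named by the platform annotation (34958 had 1 symbol, 932 several and 9211 none in this table). All members were named, with up to 4 genes of lowest p from each of 7 lists in each SRA comparison and the 3 most correlated genes of each tested member. The members and lists were chosen with earlier results of these data known. Members that failed the variance filter have intervals from a fit of all probe sets.

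In 3T3-L1 adipocytes the deviations of same-numbered arrays correlated at 0.59, 0.59 and 0.38, so the replicate numbers were taken to pair them. In ST2 adipocytes the values were 0.04, 0.27 and 0.53, and the numbers were not taken as pairs. The blocked fit still held the replicate number as a block in both lines, so its p-values also rest on the ST2 blocks. The fit was tested on simulated arrays with 200 of 19068 probe sets changed: at a log2 change of 0.5 it recovered 0.5% with overexpression and 0% with knockdown, at 1 it recovered 75% and 80%, and at 2 it recovered 98.5% of each. Alternatives covered filters, scaling, call rule, array weights, choice of probe set and leaving out arrays.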

Additional observations from a re-analysis of the deposited data

Results flagged for a closer look

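A test of the difference between the overexpression change in ST2 and the knockdown change in 3T3-L1 adipocytes called 12 of the genes read here. These are the factors, the lists around them, the markers and Sra1 together. Over all named genes 240 of 18194 (1.32%) were called. The 12 are not given as a share of the genes read, so they cannot be set against that percentage. Among the factors, Cebpd, the early C/EBP factor, had a difference of -1.85 (SE 0.27, limma adjusted p = 0.000445), made of -1.48 with overexpression and 0.37 with knockdown. Among targets, Cyp4b1 had 1.70 (SE 0.26, adjusted p = 0.000666) and Slc2a4 had 1.05 (SE 0.23, adjusted p = 0.0142), both higher with overexpression, with knockdown changes of 0.08 and 0.03. The signaling inhibitors Socs2 and Socs3 had -1.33 (SE 0.26, adjusted p = 0.00573) and -1.14 (SE 0.25, adjusted p = 0.0144). Among markers of other cell states, those of dividing cells had -2.50 for Mki67 (adjusted p = 0.000253), -2.39 for Top2a (adjusted p = 0.000623), -1.12 for Cdk1 (adjusted p = 0.0235) and -2.69 for Birc5 (adjusted p = 0.000336). The preadipocyte and fibroblast markers Col3a1 and Lum had -1.85 (adjusted p = 0.000253) and 1.52 (adjusted p = 0.0281), the second with a knockdown change of -1.57. Sra1, read only as a check because it is the hairpin's target, had 2.58 (adjusted p = 2.38e-05). Line, day and vector cannot be told apart in these differences.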

How the results depend on the processing

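The fall of Cebpd with overexpression was called under all 23 alternatives, and the 4 factors lower in ST2 control than in shControl adipocytes stayed at 4 without any single array. The count of factors higher with overexpression was 1 as reported, 0 under the nested F classification, 2 with the replicate number as a block (Klf15 added, adjusted p = 0.0492), 2 with array weights (Cebpa added, adjusted p = 0.0218) and 0 to 1 without single arrays. Array weights used limma's gene-by-gene method, because the default did not converge, a choice made after seeing the data. A second quantile normalization brought 1 factor higher in ST2 control than in shControl, Cebpb (0.41, adjusted p = 0.013). The labels do not say whether same-numbered ST2 arrays were pairs, and in ST2 the block changed no other factor's call. Calls of Lpin1 and Insr were lost in 8 and 4 alternatives.

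Directions turned only for values that were not called (between the lines is ST2 control minus shControl). A second quantile normalization gave -0.078 for Cebpb with overexpression, -0.0072 for Cebpb with knockdown, -0.018 for Klf15 with knockdown, 0.059 for Cebpa between the lines and 0.027 for Gata2 between the lines. Centring arrays on bright probe sets gave -0.063 for Cebpb with overexpression, -0.012 for Klf15 with knockdown and 0.092 for Gata2 between the lines. Array weights gave 0.084 for Ebf2 with overexpression. The mean over probe sets gave -0.0094 for Cebpb with knockdown, 0.028 for Ebf1 between the lines, 0.066 for Gata2 between the lines, 0.016 for Cebpb in the difference of changes and 0.00076 for Ebf1 in the difference of changes. The most variable probe set gave -0.051 for Cebpb with knockdown, -0.044 for Socs2 with knockdown, 0.29 for Ebf1 between the lines, 0.13 for Gata2 between the lines, 0.052 for Cebpb in the difference of changes and 0.075 for Ebf1 in the difference of changes.

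Ranges over the fits without single arrays crossed 0 with overexpression for Ebf2 from -0.074 to 0.066, Cebpb from -0.062 to 0.061 and Ebf1 from -0.050 to 0.18. They did so with knockdown for Cebpb from -0.068 to 0.19, Srebf1 from -0.010 to 0.23, Cebpa from -0.041 to 0.16, Klf15 from -0.064 to 0.082, Stat5a from -0.026 to 0.13 and Aox1 from -0.052 to 0.46. They also did so between the lines for Cebpa from -0.24 to 0.011, Srebf1 from -0.27 to 0.022, Ebf1 from -0.22 to 0.011, Gata2 from -0.060 to 0.063 and Cebpd from -0.30 to 0.058, and in the difference of changes for Cebpb from -0.18 to 0.081 and Gata2 from -0.11 to 0.069. The cause of these turns was not tested.

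Changes of 0.5 on the log2 scale were rarely recovered in the simulation, in which 200 of 19068 probe sets were changed. With overexpression 1522 probe sets were called, so that recovery rate cannot be carried over to it, and Foxc2 was called there at -0.52. A change of a factor of that size may still have gone uncalled in either comparison. RMA values carry no detection calls, which limits what can be said of Ebf2 in ST2 and of the dim Cebpd probe set. The planned comparison of protein sequences was not run.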

Other observations

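Between the control groups, the counts of called genes are given by list. Over all named genes, 17.6% were called lower in ST2 control than in 3T3-L1 shControl adipocytes and 12.5% higher. Whether a list departs from these shares was not tested. Of 18 SREBP1 targets measured, 16 were lower in ST2 control than in 3T3-L1 shControl adipocytes and 0 higher, with a median log2 difference of -1.01, while Srebf1 itself had -0.15. Of 12 C/EBPα targets, 5 were lower and 0 higher, among them Slc2a4 (-2.81) and Insr (-1.07). Of 29 PPARγ targets, 8 were lower, such as Cd36 (-2.14), and 5 higher, such as Cyp4b1 (1.26). Of 10 STAT5 targets, 5 were higher, Socs3 (1.96) and Socs2 (1.07) included, and 2 lower. Of 16 partners and paralogs, 2 were higher and 5 lower, of 33 other pro-adipogenic regulators 5 and 11, and of 28 anti-adipogenic regulators 5 and 5. All 4 proliferation markers were higher in ST2 control than in shControl adipocytes. With knockdown, 1 of 7 preadipocyte and fibroblast markers was called, Lum, with -1.57 (limma adjusted p = 0.0173).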
